A study of Mus musculus with 6 samples.

Results

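The comparison described here sets day 5 of a NAC1 rescue against day 2, with 2 arrays on each day, which are 4 of the 6 arrays of the study. The arrays were chosen by their labels: day 5 of clone 5 and of clone 7 against day 2 of the same clones. Both lines are mouse induced pluripotent stem (iPS) cell clones labelled as null for Nac1 (gene symbol Nacc1), and all groups share that genotype. The rescue gene is human NAC1 (hNAC1), and the day 0 arrays of both clones give the state at the start. Each day holds 1 array per clone, so a replicate is a clone and not a repeated culture of one line. How hNAC1 was delivered, the culture conditions and any feeder layer are not given in the sources used here. No cells without rescue were sampled on the same days, so a change from the rescue and a change with time in culture cannot be told apart.

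NAC1 is a nuclear protein with a BTB domain and no zinc finger, which binds other transcription regulators and is part of the protein network around NANOG and OCT4 in pluripotent cells. iPS cells depend on transcription factors such as OCT4, SOX2 and NANOG, keep epithelial contacts, and switch genes on and off in waves when a regulator is returned to them. A late phase can hold genes that move for the first time, genes that go on in the direction they had already taken, and genes that turn back towards where they began. The study's samples allow these 3 courses to be described for each gene, because days 0, 2 and 5 were read in the same clones.

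On each array 37% to 40.1% of the 45281 probes were detected. Of 10 marker genes of pluripotent cells, 9 were detected on all 6 arrays and Epcam on 0. Of 8 fibroblast markers, 5, among them Col1a1, Col1a2 and Col3a1, were detected on 0 arrays and Thy1 on all 6, and of 5 macrophage and blood markers 4 were detected on 0 and Cd68 on all 6. The summed background-corrected signal of the fibroblast markers was 180 and 236 on day 5 and 132 and 42 on day 2, in clone 5 and clone 7. The sum of the primitive endoderm markers was 73 and 84 on day 5 and 52 and 37 on day 2, and of these 6 genes Dab2 was detected on 0 arrays. Both sums were higher on day 5 than on day 2 in each clone, and their part in the results below was not tested. The largest changes among these markers were those of Thy1 and Gata6, 1 in each set. Thy1 had a mean log2 signal of 7.49 on day 5 and 5.98 on day 2, and Gata6 had 5.74 and 4.55. On day 0 the fibroblast sum was 447 and 69. The pluripotent sum was 13850 and 11789 on day 5 and 15548 and 13608 on day 2. The macrophage and blood sum was 323 and 352 on day 5 and 227 and 231 on day 2. In a bulk sample, more cells of a type and more RNA per cell cannot be told apart. The probes are of mouse Nacc1 and so do not check the human rescue gene. The Nacc1 probe used had log2 signals of 6.87 and 7.07 on day 5 and 7.25 and 7.28 on day 2, a change of -0.30 ± 0.17 (SE) that did not pass (adjusted p = 0.408). This probe and another of Nacc1 were detected on all 6 arrays. Where they lie relative to the altered part of the gene was not analysed here, so they do not check the null label.

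Most genes that passed between day 2 and day 5 had moved less in the interval before. Such a difference is favoured by choosing genes for a large late change. Of 12030 genes tested, 95 passed the limma test at a Benjamini-Hochberg adjusted p under 0.05, which is 0.79%. Of these, 71 rose (0.59% of genes tested) and 24 fell (0.2%). The log2 changes of the 95 genes had a median size of 1.61, ranged in size from 1.05 to 2.6, and had a median standard error (SE) of 0.195. Over the preceding 2 days the same genes had moved by a median of 0.299. The median gene of all those tested was at -0.02 between day 5 and day 2, and 47.3% of genes lay above 0. At least 2-fold and the same way in both clones, 152 genes (1.26%) moved in this late interval. In the early one, day 2 against day 0, 44 did (0.366%) and 0 genes passed by limma. Of the 152 genes, 107 were higher (0.889%) and 45 lower (0.374%), and 88 of them also passed the test. Of the 95 genes 80 also passed between day 5 and day 0, which shares the day 5 arrays and in which 4.26% of genes passed. At an unadjusted p under 0.05 there were 2148 genes between day 5 and day 2.

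The number of passing genes rested on single arrays, and so does each call below. With the day 5 array of clone 5 left out it was 516, and with that of clone 7 it was 41. Leaving out day 2 of clone 5 gave 2, and leaving out day 2 of clone 7 gave 0 by limma (729 genes at an unadjusted p under 0.05). With either day 0 array left out it was 329. All 95 genes kept their direction in both clones, which is no separate result, since the test asks how far the clones differ. For 93 of the 95, both day 5 arrays lay on one side of both day 2 arrays, and this held for 46.7% of all genes tested. Of the 71 genes that rose, 38 had their lowest signal of all 6 arrays on day 2 of clone 7, as did 18% of all genes tested. For 30 of the 95 genes 43 other probes were kept, and all 43 pointed the same way. A probe detected on day 5 alone could only point up, but 19 of the 43 were detected on all 4 arrays.

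**Figure D1:**
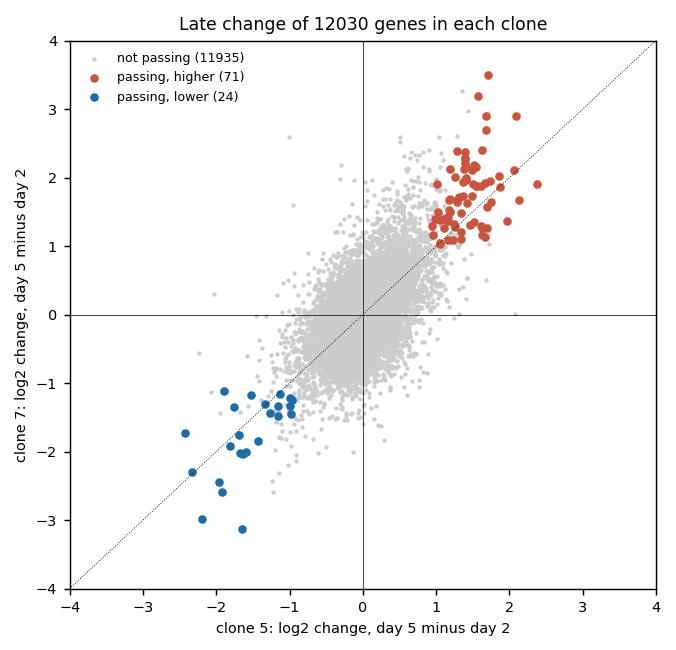
Each point is 1 of 12030 genes, with its log2 change between day 5 and day 2 in clone 5 on the horizontal axis and in clone 7 on the vertical axis. Coloured points are the 71 genes that rose and the 24 that fell, which lie along the dotted line of equal change, and the grey points gather around 0.

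The genes that rose most, ranked by the weaker of the 2 clones, came from several kinds of cell function. Values of each gene follow in log2 signal, for clone 5 and then clone 7. Alox12b, a lipoxygenase of the epidermis, was at 8.16 and 8.68 on day 5 and at 6.07 and 5.78 on day 2. Tes, a LIM-domain protein of focal adhesions and actin fibres, was at 9.97 and 9.68 on day 5 and at 7.91 and 7.57 on day 2. In both genes the day 5 arrays did not overlap the day 2 arrays, as in 93 of the 95 passing genes and 46.7% of all genes tested. Alox12b rose by 2.50 ± 0.39 (SE, adjusted p = 0.0466) and Tes by 2.09 ± 0.16 (adjusted p = 0.016), and 2 further probes of Tes read 2.23 and 1.72. Gadd45g, a stress-responsive regulator of growth arrest and DNA repair, was at 8.61 and 9.27 on day 5 and at 6.22 and 7.36 on day 2. It rose by 2.15 ± 0.30 (adjusted p = 0.0347), and day 2 of clone 7 already stood above that clone's day 0 signal of 6.04. Pdpn, the membrane glycoprotein podoplanin, was at 11.01 and 10.68 on day 5 and at 9.27 and 8.74 on day 2. Its day 5 signals were also above those of day 0, at 9.22 and 9.80.

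Genes of early embryo and germ cells were among these rises. Dppa3, a maternal factor that protects the early embryo's methylation and marks naive pluripotent and primordial germ cells, was at 7.65 and 8.03 on day 5 and at 5.80 and 5.99 on day 2. Tdrkh, a Tudor-domain protein needed to trim piRNAs in germ cells, was at 7.77 and 7.25 on day 5 and at 5.89 and 5.39 on day 2. Both were higher in each clone on day 5, with changes of 1.94 ± 0.17 and 1.87 ± 0.17 (adjusted p = 0.016 each). The other kept probe of Tdrkh was detected on the day 5 arrays but not on those of day 2, and its change was 0.53. Dlk1, a paternally expressed imprinted gene for a membrane protein related to Notch ligands, was at 8.75 and 8.57 on day 5 and at 7.04 and 5.07 on day 2. The clones differed on day 2 and nearly met on day 5, so that Dlk1 rose by 1.71 in clone 5 and by 3.50 in clone 7 (mean 2.60 ± 0.40, adjusted p = 0.0434).

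Some rises began at or below the detection limit. Slc1a1, a transporter of glutamate, aspartate and cystine, was at 6.23 and 6.39 on day 5 and undetected on both arrays of day 2, which gives a rise of at least 3.19-fold (adjusted p = 0.016). In all, 7 of the 71 genes that rose were undetected on both day 2 arrays. These 7 genes and Cntnap2 were kept for the test only through the day 5 arrays, where they are high. They could hardly have been tested as falls, so their passing is no separate support for a rise. Cntnap2, a neurexin-like adhesion protein of neurons, was at 6.76 and 7.42 on day 5 and at 5.07 and 4.52 on day 2, where 1 of the 2 arrays detected it. The other kept probe of Cntnap2 read 0.22, so its 2 probes disagree in size. By contrast, Smco2, a single-pass membrane protein of little known function, was detected on both day 2 arrays, at 5.388 and 5.305. It rose by 1.68 in clone 5 and 2.70 in clone 7 (adjusted p = 0.025).

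**Figure D2:**
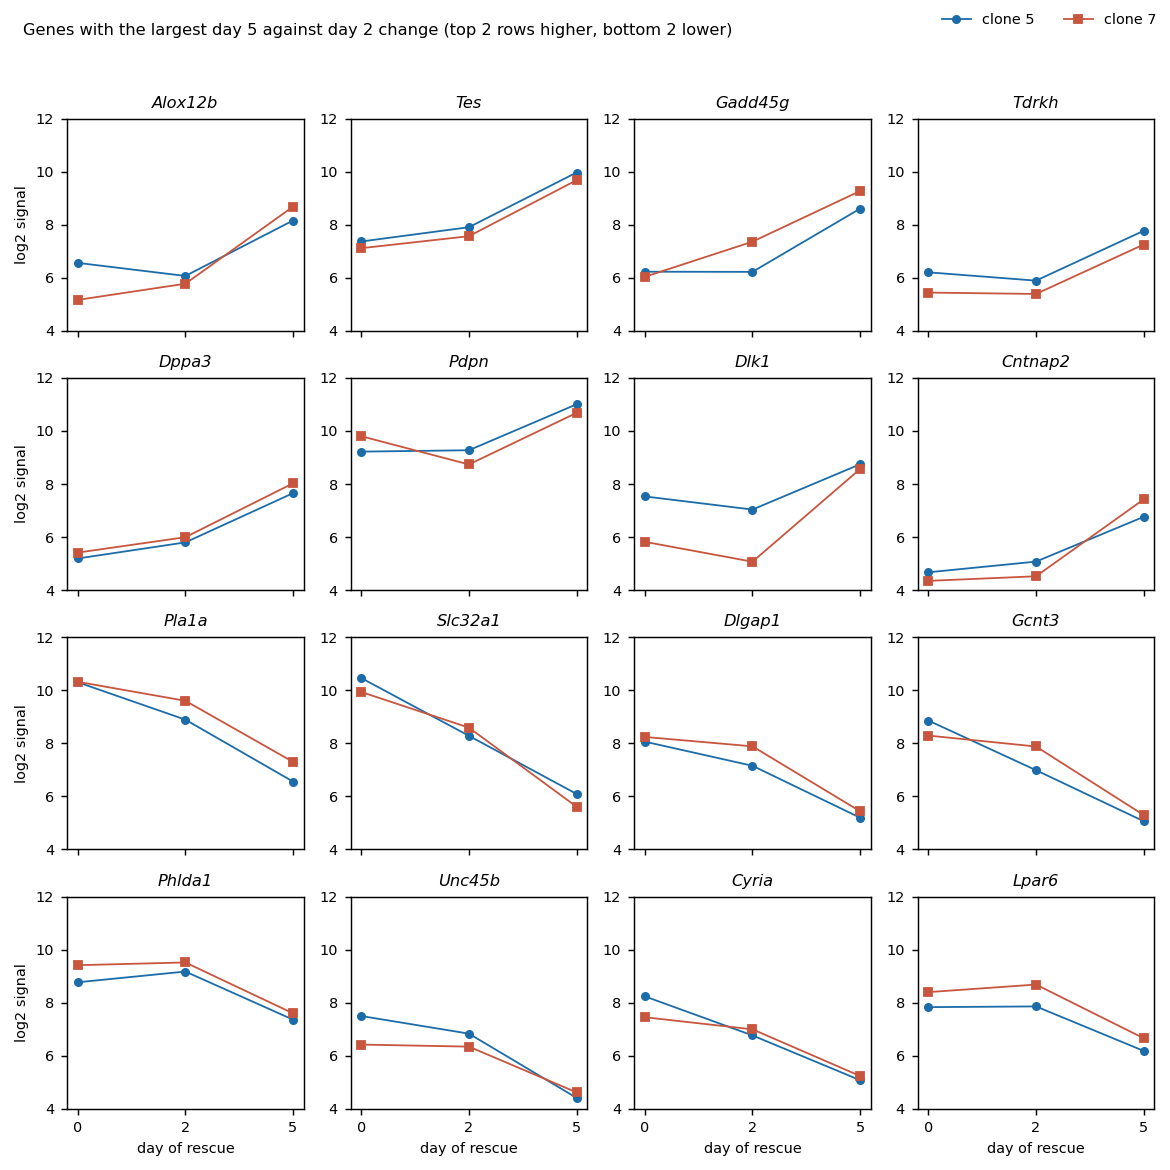
Log2 signal (vertical axis) on days 0, 2 and 5 (horizontal axis) for the 8 genes that rose and the 8 that fell that led when ranked by the weaker of the 2 clones, with 1 line per clone and 1 point per array. In the upper panels the lines rise after day 2, and those of Tes and Dppa3 had also risen, by less, before it in both clones. The early step of Cntnap2 lies near the detection limit, as it was undetected on day 0 and on 1 of the 2 day 2 arrays. In the lower panels Pla1a, Slc32a1, Gcnt3, Cyria and, by less, Dlgap1 and Unc45b were already lower on day 2 than on day 0 in both clones. Phlda1 and Lpar6 were not.

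Further genes that rose, picked here after their values were seen, have known roles in germ cells and meiosis. Tex19.2, a mammal-specific gene of germ cells, was at 8.25 and 8.18 on day 5 and at 6.73 and 6.00 on day 2. Syce3, a central element protein of the synaptonemal complex, was at 7.29 and 6.85 on day 5 and at 5.75 and 4.97 on day 2. Rhox13, a homeobox gene of the germ line, was at 7.73 and 7.21 on day 5 and at 6.33 and 4.93 on day 2. In these genes all day 5 signals were higher than all day 2 signals. Arrays of the 2 days did not overlap for 93 of the 95 passing genes and for 46.7% of all genes tested. Smc1b, the cohesin subunit of meiosis, rose by 1.27 ± 0.16, Prss50, a protease-like protein of the testis, by 1.30 ± 0.18, and Ezhip, an inhibitor of Polycomb repressive complex 2, by 1.26 ± 0.19. Their adjusted p-values lay between 0.0284 and 0.0456. Smc1b was kept for the test only through the day 5 arrays, where it is high. Because they were picked for their roles among the passing genes, they say nothing about germ cell genes as a whole.

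The 24 genes that fell included regulators of signalling, membrane proteins and enzymes. Phlda1, an early response gene below growth factor and ERK signalling, was at 7.35 and 7.59 on day 5 and at 9.17 and 9.51 on day 2. Lpar6, a receptor for lysophosphatidic acid, was at 6.18 and 6.65 on day 5 and at 7.85 and 8.68 on day 2. Both genes fell in each clone by more than the clones differed, Phlda1 with -1.87 ± 0.18 and Lpar6 with -1.85 ± 0.18 (adjusted p = 0.016 each). Pla1a, a secreted phospholipase specific for phosphatidylserine, was at 6.56 and 7.30 on day 5 and at 8.89 and 9.60 on day 2. Its change was -2.32 ± 0.22 (adjusted p = 0.016), and 2 other probes read -2.34 and -2.14. Dlgap1, a scaffold protein of the postsynaptic density, was at 5.19 and 5.43 on day 5 and at 7.15 and 7.88 on day 2. The 3 other kept probes of Dlgap1 read -1.76, -0.88 and -0.49, and the last 2 were undetected on day 5.

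Unc45b, a myosin chaperone of muscle, was undetected on both arrays of day 5 and was at 6.83 and 6.34 on day 2, which gives a fall of at least 3.86-fold (adjusted p = 0.0347). Tmprss6, a membrane serine protease, was likewise undetected on day 5 and was at least 1.88-fold lower (adjusted p = 0.0466). These were the only 2 of the 24 genes undetected on both day 5 arrays. The probe named LOC268934, which has no current symbol, was at 6.05 and 4.76 on day 5 and at 7.70 and 7.88 on day 2. It had the largest fall of the genes classed below as new, with -2.39 ± 0.36 (adjusted p = 0.0434). Further falls, named after their values were seen, were those of Niban2 (-1.64 ± 0.20), a regulator of cell survival, Myof (-1.80 ± 0.25), the membrane repair protein myoferlin, and Cd80 (-1.25 ± 0.17), a surface ligand of T cells.

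To set new changes apart from the turning back of earlier ones, each passing gene was classed by its change between day 2 and day 0, the early change. A gene was called new where the early change was under 0.5 of the late one, a reversal where it was opposite and at least 0.5 of it, and a continuation where it ran the same way and was at least 0.5 of it. Of the 95 genes, 86 were new (90.5%), 4 were reversals (4.21%) and 5 were continuations (5.26%). Choosing genes for a large late change favours the new class. A new gene need not have been still before, and Pla1a, classed as new, had an early change of -1.065. The number of reversals was 19 with a limit of 0.25 and 1 with 0.75. Among the 152 genes that moved at least 2-fold in both clones, 132 were new, 12 reversals and 8 continuations. Over all genes tested the shares were 31.3% new, 44.1% reversal and 24.5% continuation, and small changes in both intervals fill the last 2 classes. The early and late changes share the day 2 arrays, and noise on these arrays moves the 2 changes in opposite directions, so the classes are a description. Setting the early change of one clone against the late change of the other, which share no array, gave 86 new, 3 reversal and 6 continuation genes for clone 5 early and clone 7 late. It gave 79 new, 12 reversal and 4 continuation genes for clone 7 early and clone 5 late. In both crossings the class was new for 74 genes, reversal for 2 and continuation for 2, and it differed for 17.

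**Figure D3:**
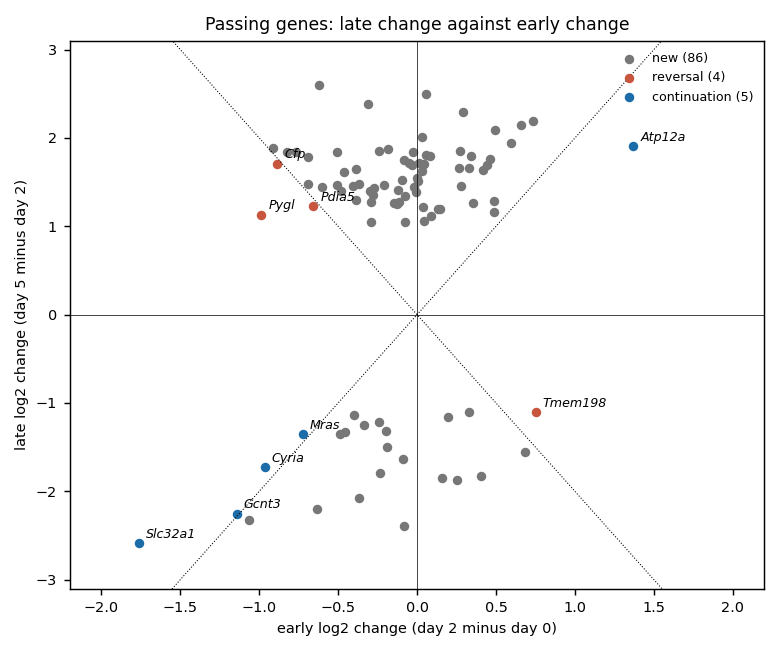
The 95 passing genes by early log2 change (day 2 minus day 0, horizontal axis) and late log2 change (day 5 minus day 2, vertical axis), as means of 2 clones. Dotted lines mark an early change of 0.5 of the late one, and the 86 new genes lie between them above and below the centre. The 4 reversals and 5 continuations are named, and both axes use the day 2 arrays.

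The 4 reversals were 3 genes that rose and 1 that fell. Cfp, the complement factor properdin, was at 9.51 and 9.93 on day 5 and at 8.10 and 7.93 on day 2. It had stood at 8.63 and 9.17 on day 0, so the day 5 signals passed the level of the start in both clones. Pygl, the liver form of glycogen phosphorylase, was at 6.90 and 6.32 on day 5 and at 5.74 and 5.22 on day 2, with 6.91 and 6.03 on day 0. Here day 5 came back close to day 0, but the other probe of Pygl, detected on all 6 arrays, read 0.28 against 1.13 for the probe used. Pdia5, a protein disulfide isomerase of the endoplasmic reticulum, was at 8.59 and 8.59 on day 5, at 7.53 and 7.20 on day 2 and at 7.98 and 8.07 on day 0. Of its other probes, 1 read 1.05 and 1, detected on 4 arrays, read 0.05. Tmem198, a membrane protein, was the only reversal among the genes that fell, at 5.10 and 5.01 on day 5, 6.09 and 6.23 on day 2 and 5.28 and 5.54 on day 0.

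Of the 5 continuations, 4 went on falling. Slc32a1, the vesicular transporter of GABA and glycine, was at 6.09 and 5.61 on day 5, at 8.28 and 8.59 on day 2 and at 10.46 and 9.93 on day 0. Each step down was larger than the gap between the clones, and the late one was -2.59 ± 0.24 (adjusted p = 0.016). Gcnt3, which branches mucin-type glycans, was at 5.06 and 5.29 on day 5, at 6.98 and 7.88 on day 2 and at 8.86 and 8.29 on day 0. Cyria, a partner of the small GTPase RAC1, was at 5.07 and 5.23 on day 5, at 6.76 and 6.99 on day 2 and at 8.23 and 7.45 on day 0. For Gcnt3 and Cyria the early step was larger in clone 5 than in clone 7, while the late step was -1.92 and -2.59 in Gcnt3 and -1.69 and -1.76 in Cyria, for clone 5 and clone 7. Mras, a GTPase of the RAS family, fell by 1.36 ± 0.21 (adjusted p = 0.0434) after an early change of -0.72. The only continuation upward was Atp12a, the catalytic subunit of the non-gastric proton pump, at 7.88 and 7.34 on day 5 and at 5.74 and 5.67 on day 2 after it had been undetected on day 0. It rose by 1.90 ± 0.19 (adjusted p = 0.016).

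The genes that had moved by day 2 were followed to day 5. Of 30 genes at least 2-fold lower on day 2 than on day 0 in both clones (0.249% of genes tested), 6 went back by at least 0.5 of their early change, 7 went down by a further 0.5 or more of it and 17 lay between. Their median was -1.26 between day 5 and day 0, beside an early median of -1.40 and a late median of 0.19. On day 5, 16 of the 30 were still at least 2-fold below day 0 in the mean of the 2 clones. Of 14 genes at least 2-fold higher on day 2 (0.116% of genes tested), 3 went back, 2 went further and 9 lay between, with medians of 1.07 between day 5 and day 0, 1.29 early and -0.10 late. On day 5, 7 of the 14 were still at least 2-fold above day 0 in the mean of the 2 clones. The genes were chosen on the day 2 arrays, so some return towards day 0 would follow from the choice alone. Slc32a1 and Atp12a were the only 2 genes that moved at least 2-fold in both clones in both intervals.

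**Figure D4:**
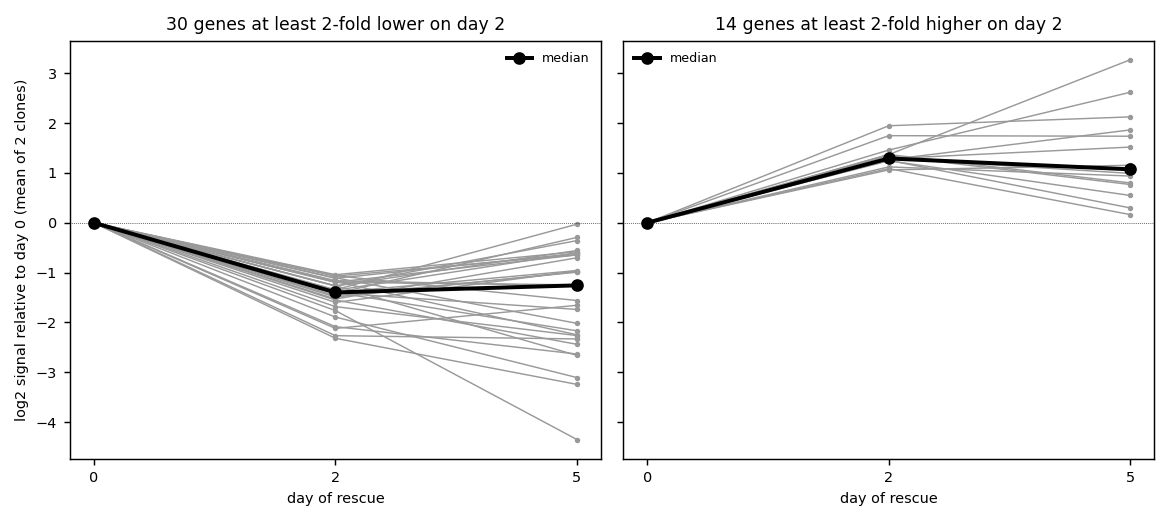
Log2 signal relative to day 0 (vertical axis, mean of 2 clones) on days 0, 2 and 5 (horizontal axis) for the 30 genes at least 2-fold lower (left) and the 14 at least 2-fold higher (right) on day 2 in both clones. Grey lines are genes and the black line is the median, which stays near its day 2 value, at -1.26 and 1.07 on day 5.

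Some matrix genes among these 44 are given here, named after their values were seen. Col18a1, the collagen XVIII chain, was at 8.30 and 8.64 on day 5 and at 9.55 and 9.24 on day 2, and Nid1, the laminin-binding protein nidogen, was at 6.71 and 6.97 on day 5 and at 7.35 and 7.42 on day 2. Both were lower on day 5 than on day 2 in each clone, without passing (-0.93 ± 0.21, adjusted p = 0.0893, and -0.55 ± 0.20, adjusted p = 0.213). Fbln1, the matrix protein fibulin, had a late change of 1.13 after -1.42, which left it at -0.29 between day 5 and day 0. The late changes of Col4a1, Col4a2, Serpinh1 and Mmp2 were 0.44, 0.43, 0.63 and -0.06, and none passed. Col4a2 was undetected on both day 2 arrays.

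Between clones, where early and late changes share no array, the values were small. The 94 genes at least 2-fold lower on day 2 in clone 5 had a median late change of 0.11 in clone 7, where 56.4% of them lay above 0, beside 47.7% of all genes. The 248 genes lower in clone 7 had a median of 0.21 in clone 5, with 66.1% above 0 beside 48.7% of all genes. For the 49 genes at least 2-fold higher in clone 5 the median in clone 7 was -0.21, and for the 149 higher in clone 7 the median in clone 5 was -0.04. Across genes, which are not independent replicates, the early change of clone 5 and the late change of clone 7 had a Pearson r of -0.19 and those of clone 7 and clone 5 of -0.09. All arrays were normalised together.

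Genes of protein folding in the endoplasmic reticulum (ER) had a negative early and a positive late median in both clones. The ER folds secreted and membrane proteins with chaperones and disulfide isomerases, and cells raise these genes together when unfolded protein builds up. This list and those below were chosen with earlier results of these data known, so their counts and medians are a description. Of 26 tested genes 0 passed, beside 0.79% of all genes tested. Of the 26, 24 were above 0, beside 47.3% of all genes. The median was 0.51 on the log2 scale (0.36 in clone 5 and 0.67 in clone 7). The early median was -0.51 (-0.24 in clone 5 and -0.77 in clone 7), and the median between day 5 and day 0 was -0.11. Of the 26 genes, 19 had their lowest signal of all 6 arrays on day 2 of clone 7, against 18% of all genes.

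Hsp90b1, the ER form of the HSP90 chaperone, was at 11.17 and 10.79 on day 5, at 10.47 and 9.48 on day 2 and at 11.27 and 11.50 on day 0. Calr, the calcium-binding chaperone calreticulin, was at 9.09 and 8.92 on day 5, at 8.74 and 7.32 on day 2 and at 8.86 and 9.44 on day 0. In both genes the day 2 signal of clone 7 was the lowest of the 6 arrays. Pdia3 and P4hb, disulfide isomerases, had late changes of 1.04 ± 0.33 and 0.87 ± 0.22 and did not pass (adjusted p = 0.171 and 0.113). Pdia5, Fkbp11 and Tmx4, ER proteins outside the list and named after their values were seen, did pass. Fkbp11, a prolyl isomerase, was at 10.84 and 10.16 on day 5 and at 9.35 and 8.42 on day 2, and it rose by 1.61 ± 0.20 (adjusted p = 0.0274). Tmx4, a thioredoxin-like membrane protein, rose by 1.43 ± 0.19 (adjusted p = 0.0286).

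Promoters of ER folding genes are known for the ER stress response element, the letters CCAAT and CCACG with any 9 bases between them, which the factors ATF6 and NF-Y bind. The 250 bases before the start of each gene were searched on both strands in RefSeq promoters of the GRCm38.p6 build. The letters stood in 8 of the 23 list genes with a promoter sequence (34.8%), in 0.13% of 27025 genes with a promoter and in 0.16% of the tested genes. The 8 genes with the letters had a median late change of 0.50 and the 15 without had 0.62. The stretches below show the match in capitals in 3 genes of the list, 5′ to 3′ on the gene's strand, and where the capitals begin with CGTGG the match lies on the opposite strand. The first and second are from Hsp90b1 (minus strand, chr10:86705598-86705694 and chr10:86705493-86705591), the third from Calr (minus strand, chr8:84847035-84847133) and the fourth from Pdia6, a disulfide isomerase that was among the 30 genes lower on day 2 (plus strand, chr12:17266451-17266549).
Hsp90b1, upstream: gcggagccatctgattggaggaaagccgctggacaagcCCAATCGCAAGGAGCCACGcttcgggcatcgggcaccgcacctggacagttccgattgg
Hsp90b1, downstream: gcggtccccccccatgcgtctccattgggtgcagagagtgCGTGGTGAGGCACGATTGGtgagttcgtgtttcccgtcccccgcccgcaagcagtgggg
Calr: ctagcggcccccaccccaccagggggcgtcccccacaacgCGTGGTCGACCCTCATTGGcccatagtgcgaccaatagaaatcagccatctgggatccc
Pdia6: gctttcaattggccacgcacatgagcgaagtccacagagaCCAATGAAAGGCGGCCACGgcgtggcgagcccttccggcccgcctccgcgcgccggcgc

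Serine synthesis and the targets of ATF4, the factor that answers amino acid shortage, also had medians of opposite sign in the 2 intervals, and here 2 genes passed. Of 19 tested genes, 2 rose and 0 fell, beside 0.59% and 0.2% of all genes tested. Of the 19, 14 were above 0, beside 47.3% of all genes. The median was 0.41 (0.21 in clone 5 and 0.51 in clone 7) after an early median of -0.60. Phgdh, the first enzyme of serine synthesis, was at 9.44 and 9.20 on day 5, at 8.04 and 6.82 on day 2 and at 8.84 and 7.84 on day 0. Vldlr, a lipoprotein receptor, was at 7.26 and 7.25 on day 5, at 5.90 and 5.32 on day 2 and at 6.16 and 5.83 on day 0. Both genes ended above their day 0 signal in each clone, and the 2 other kept probes of Vldlr read 1.53 and 1.80. Nupr1 (1.36 ± 0.37) and Chac1 (1.31 ± 0.27), which are stress-induced, did not pass, and Atf4 itself was at -0.31 (named after its value was seen). Of the 19 genes, 12 were lowest on day 2 of clone 7. In the promoter windows the letters TGATGNAAT, which ATF4 and C/EBP factors bind, stood in Nupr1 and Pycr1, 2 of 17 genes (11.8%), and in 0.91% of all promoters.

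Lysosome and matrix genes had positive late medians after negative early ones, and no member passed. The lysosome and tetraspanin list had 23 of 28 genes above 0, beside 47.3% of all genes tested, and a median of 0.32, after -0.51 early. Its largest change was that of Glb1, the lysosomal beta-galactosidase, at 9.69 and 9.53 on day 5 and 8.21 and 8.22 on day 2 (1.39 ± 0.31, adjusted p = 0.092). Other kept probes of Glb1 read 0.53, detected on all 6 arrays, and -0.21, undetected on day 5, so its probes disagree. The basement membrane list had 12 of 16 above 0 and a median of 0.39, at 0.09 in clone 5 and 0.55 in clone 7, after -0.96 early, and it stayed at -0.45 between day 5 and day 0. The 9 tested genes of fibroblasts and fibrillar matrix were all above 0, with a median of 0.57. Thy1, a fibroblast surface protein, was at 7.38 and 7.61 on day 5 and at 6.87 and 5.09 on day 2, and most of this difference lay in clone 7. Of the matrix genes 6 of 9, of the basement membrane genes 10 of 16 and of the lysosome genes 14 of 28 were lowest on day 2 of clone 7.

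Germline and piRNA genes had a positive late median after an early median of different sign in the clones (0.07 in clone 5 and -0.30 in clone 7). Of 15 tested genes, 2 rose and 0 fell, beside 0.59% and 0.2% of all genes tested. Of the 15, 14 were above 0, beside 47.3% of all genes. The median was 0.46 (0.44 in clone 5 and 0.55 in clone 7) after -0.15 early, with 0.54 between day 5 and day 0. Besides Tdrkh, Tuba3a rose, an alpha-tubulin of the testis, at 8.07 and 7.60 on day 5 and at 6.78 and 5.93 on day 2. It has a near-identical gene copy, and whether its probes read that copy too was not tested. Kit, the receptor of stem cell factor that germ cells need, was at 9.93 and 9.12 on day 5 and at 8.22 and 6.17 on day 2. Its change of 2.33 ± 0.38 lay just outside the threshold (adjusted p = 0.0504), and its other kept probe read 0.64. Tdrd12, a piRNA factor, was at 1.43 ± 0.32 (adjusted p = 0.0894). Here too 10 of the 15 genes were lowest on day 2 of clone 7. The letters CACGTG, an E-box that many helix-loop-helix factors bind, stood in the promoters of Mov10l1, Stag3 and Taf7l, 3 of 14 genes (21.4%), and in 10.1% of those of tested genes.

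Imprinted genes, which are expressed from 1 parental copy, had 1 passing member among 19, which was Dlk1. Over all genes tested 0.79% passed. Of the list 14 were above 0, beside 47.3% of all genes. The median was 0.47 (0.28 in clone 5 and 0.79 in clone 7) after -0.29 early. The day 2 array of clone 7 was the lowest of the 6 for 10 of the 19, against 18% of all genes tested. Igf2, a paternally expressed growth factor, was at 6.62 and 7.63 on day 5 and at 5.63 and 5.65 on day 2 (1.49 ± 0.36, adjusted p = 0.105). Peg3, a paternally expressed zinc finger gene, ran the other way, at 8.64 and 9.34 on day 5 and at 9.93 and 10.54 on day 2. Its change of -1.24 ± 0.21 did not pass (adjusted p = 0.0504), and another probe detected on all 6 arrays read -1.13. The list therefore held large values in both directions.

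FGF and ERK targets held 3 of the 24 genes that fell, which is 3 of the 17 on the list, beside 0.2% of genes tested. They held 0 of the 71 that rose (0.59% of genes tested). The list was chosen with earlier results of these data known, so these shares are a description. FGF signals pass through the kinase ERK, which pushes pluripotent cells out of the naive state and turns on its own inhibitors. Dusp6, a phosphatase that shuts ERK off, was at 9.02 and 9.16 on day 5 and at 10.54 and 10.34 on day 2. Etv1, an ETS factor induced by FGF, was at 4.77 and 5.29 on day 5 and at 6.11 and 6.60 on day 2. Together with Phlda1 they fell in both clones, Dusp6 with -1.35 ± 0.18 (adjusted p = 0.0286) and Etv1 with -1.33 ± 0.21 (adjusted p = 0.0479). Other kept probes read -1.30 and -0.49 for Dusp6 and -0.53 and -0.65 for Etv1. The list as a whole was split, with 6 of 17 genes above 0, beside 47.3% of all genes. Its medians were -0.38 (clone 5) and 0.00 (clone 7). Dusp4, another ERK phosphatase, was at 0.98 ± 0.37 without passing (adjusted p = 0.23).

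Pluripotency genes had medians near 0, with passing members in both directions. Of 14 core genes 0 passed, and the median was -0.10. Pou5f1, which encodes OCT4, was at 11.32 and 11.49 on day 5 and at 11.98 and 11.58 on day 2, Nanog was at 12.10 and 11.45 on day 5 and at 11.88 and 11.35 on day 2, and Sox2 was at 8.52 and 8.28 on day 5 and at 8.85 and 8.63 on day 2. Klf4 had a change of 0.46 ± 0.30 and, with these 3, did not pass (adjusted p from 0.333 to 0.729). Of 12 naive genes Dppa3 rose and Klf5 fell, beside 0.59% and 0.2% of all genes tested. Klf5, a Krüppel-like factor of naive cells, was at 10.31 and 10.02 on day 5 and at 11.44 and 11.18 on day 2 (-1.14 ± 0.17, adjusted p = 0.043). Gbx2 (-1.40 ± 0.39) and Tfcp2l1 (-0.95 ± 0.18), naive factors as well, did not pass (adjusted p = 0.135 and 0.0659). Myc was not tested, since neither of its probes was detected on both arrays of any day.

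Epithelial genes had 1 passing member of 26, beside 0.79% of all genes tested. Cdh3, which encodes P-cadherin, was at 6.29 and 6.06 on day 5 and at 4.83 and 4.75 on day 2 (1.38 ± 0.17, adjusted p = 0.0256). Cdh1, which encodes E-cadherin, was at 8.86 and 9.04 on day 5, at 8.07 and 7.88 on day 2 and at 8.58 and 8.92 on day 0. Day 5 was above day 2 in both clones for Cdh1 without passing (0.98 ± 0.19, adjusted p = 0.069), and it was above day 0 as well, by a mean of 0.20. Zeb1, a repressor of Cdh1, was at 6.61 and 5.98 on day 5 and at 7.48 and 7.18 on day 2 (-1.03 ± 0.27, adjusted p = 0.118). The epithelial list had 18 genes above 0 and a median of 0.35, and the 11 mesenchymal genes had 6 above 0, 0 passing and a median of 0.14. Among all genes tested 47.3% lay above 0.

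**Figure D5:**
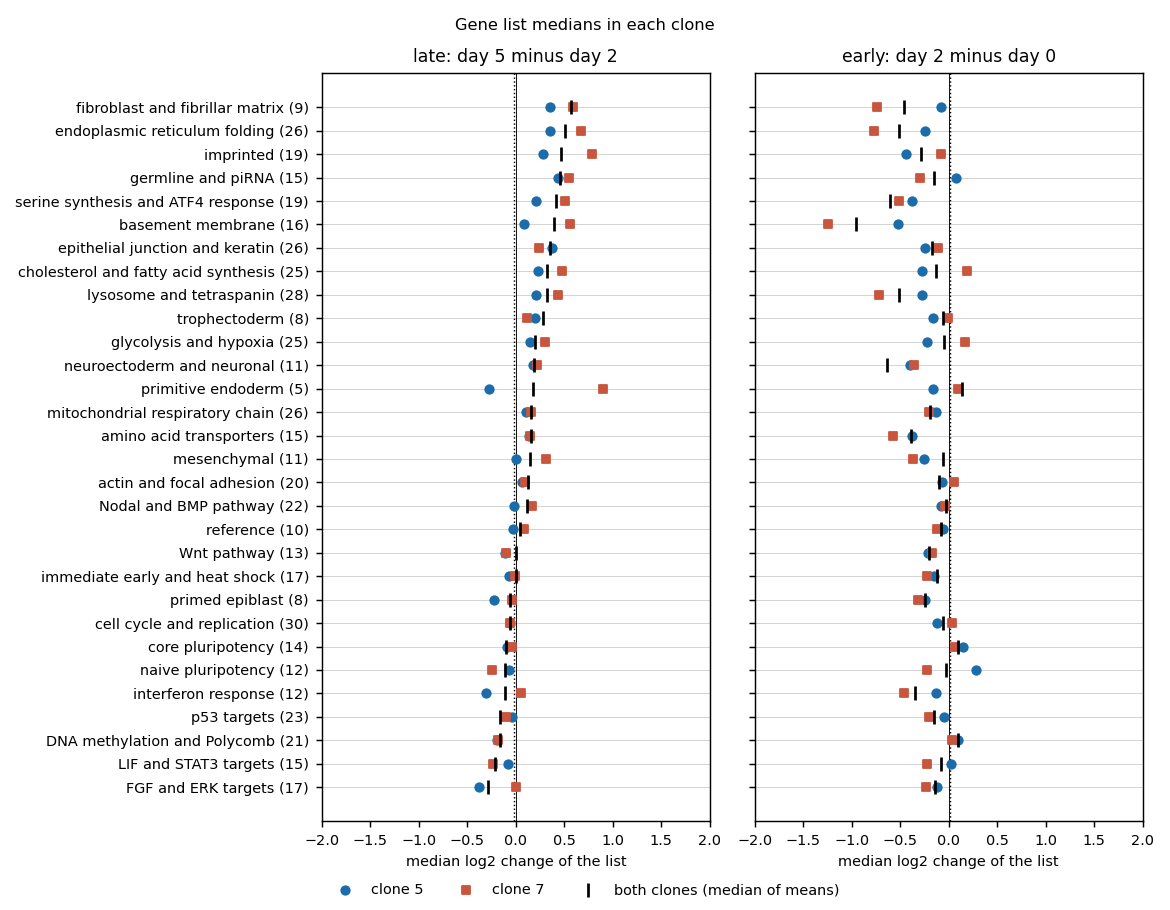
Median log2 change of each gene list with at least 5 tested genes (number in brackets), late on the left and early on the right. Circles are clone 5, squares are clone 7 and bars are the median over the means of both clones, and the dotted line is the median of all genes tested (-0.02 late). The ER folding, serine and ATF4, basement membrane and lysosome lists lie above 0 late and below 0 early in both clones, while the early medians of the germline list differ in sign between the clones.

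Other lists had smaller medians or members in both directions. Respiratory chain genes had 23 of 26 above 0, beside 47.3% of all genes tested, with a median of 0.16. In the reversal class were 22 of the 26, beside 44.1% of all genes. Of these 26 genes, 14 were lowest on day 2 of clone 7, the array that was lowest for 18% of all genes tested. DNA methylation and Polycomb genes had 3 of 21 above 0 and a median of -0.17, nearly equal in the clones (-0.19 and -0.18), with Tet2, which oxidises methylcytosine, at -0.80 ± 0.26 (adjusted p = 0.184). Cholesterol and fatty acid synthesis genes had 21 of 25 above 0 and a median of 0.33. Glycolysis and hypoxia genes had 21 of 25 above 0 and a median of 0.20. None of these 4 lists had a passing member. Neural genes had 1 that rose, Cntnap2, and 2 that fell, Slc32a1 and Dlgap1, among 11, beside 0.59% and 0.2% of all genes tested. The 5 tested primitive endoderm genes had 1 that rose, the endoderm factor Gata6, beside 0.59% of all genes tested. Gata6 was at 5.63 and 5.85 on day 5 and at 4.64 and 4.45 on day 2 (1.19 ± 0.18, adjusted p = 0.045). It was kept for the test only through the day 5 arrays, where it is high. Cell cycle and replication genes had 10 of 30 above 0, 0 passing and a median of -0.06.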

How the data were processed

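Expression was read on 6 Illumina mouse bead arrays of 1 chip. The deposited probe table gives an average bead signal per probe, an intensity without normalization or background correction per the file headers, and a detection p-value. The authors' series values, also deposited, are log2; no software is given in the sources used here. Signals were background corrected (normexp from detection p-values, offset 16), quantile normalised and log2 transformed with limma 3.58.1 in R 4.3.3. A probe was kept if both arrays of any day detected it (p under 0.05), which left 17471, and the brightest probe per gene gave 12030 genes.

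The model held day and clone on all 6 arrays (lmFit and eBayes, 2 residual degrees of freedom). Clone is a block because same-numbered arrays come from the same cell line, and their deviations from day means had correlations of 0.342 (days 5 and 2), 0.358 (days 2 and 0) and -0.066 (days 5 and 0). A gene undetected on 1 day is bounded by the lowest detected signal.

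Of the probes, 35777 had a current symbol in RefSeq (GRCm38.p6), 8037 of them by synonym, and 9504 kept the deposited name. The 33 gene lists and all members were chosen with earlier results of these data known. Named genes are the 8 higher and 8 lower genes ranked by the weaker of the 2 clones, up to 6 per class and direction, passing members and up to 4 others of each list described, and fixed genes: Cdh1, Klf4, Myc, Nacc1, Nanog, Pou5f1, Sox2 and Zeb1. Results of 2 genes named by this rule are not reported here. The procedure was tested on simulated data. Alternatives covered the block, background, scaling, series values, detection filter, probe choice, variance, threshold, class limits and each array left out. The number of arrays limits the precision.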

Additional observations from a re-analysis of the deposited data

Results flagged for a closer look

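Opposite directions in the 2 clones between day 5 and day 2 were flagged only where the smaller of the 2 changes reached a set size, which left 2 cases. Smaller differences in direction were common, since of 12030 genes 3771 were above 0 and 4193 below 0 in both clones. With 1 array per clone and day the difference was not tested. The median of the 5 tested primitive endoderm genes was -0.273 in clone 5 and 0.90 in clone 7. Spink1, a secreted trypsin inhibitor, was the only gene that moved at least 2-fold in opposite directions. Its log2 signal was 5.70 and 8.94 on day 5 and 6.71 and 6.34 on day 2, in clone 5 and clone 7, a change of -1.01 in clone 5 and 2.60 in clone 7.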

How the results depend on the processing

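Beside 95 passing genes and 4 reversals with the settings used, the paired fit of the 4 arrays of days 5 and 2 gave 329 and 37, and the fit with no replicate block 13 and 0. An offset of 50 gave 29 and 1, median scaling 181 and 10, detection at p under 0.01 on all 6 arrays 38 and 1, the mean of a gene's probes 61 and 1, trended and robust variance 240 and 20, and a threshold of 0.1 437 and 59. Without background correction 1 gene passed by limma with 0 reversals, and 0 passed by limma with the authors' series values or with all probes unfiltered, where 1701 and 3293 had an unadjusted p under 0.05. Leaving out each array in turn gave 0 to 516 passing genes and 0 to 62 reversals. Reversals numbered 19 with a class limit of 0.25 of the late change, 1 with 0.75, and 12 for clone 7 early and clone 5 late. The cause of these differences was not tested. For the genes named, 932 of 1342 values kept direction and side of the threshold, 343 kept the direction but no longer passed, 62 passed where they had not, 5 of small changes turned sign and 0 called ones did. Of 114 list medians under other scalings, 89 stayed within the spread of the clones, 25 moved by more and 0 reversed. With 2 arrays a day, signals near the lowest detected log2 values (4.59 to 4.70) give bounds.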
